A study of Mus musculus with 12 samples.

Results

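The connexin genes Gja1, Gja4, Gja5 and Gjc1 and the sodium channel genes Scn4a, Scn4b and Scn7a were followed through 12 heart libraries of mice with and without a Slit2 transgene. They are the 7 rows with these symbols among the 52858 rows of each library, taken from a list of names that was drawn up with earlier results of these data known, and all 7 were among the 15240 genes that passed the filter on low values. Hearts came from male mice aged 3 to 5 months and were perfused outside the body on a Langendorff system. C57-non-IR and Slit2-non-IR hearts were perfused without a break for 80 min. C57-IR and Slit2-IR hearts received 20 min of stable perfusion, 20 min of global ischemia without flow and 40 min of reperfusion (IR). Each group held 3 hearts, which the labels call independent samples. C57 hearts were those of C57BL/6J mice, the background strain. Slit2-Tg mice carry the full-length human Slit2 cDNA behind the CMV promoter, which is active in many cell types, and the line was founded from C57 × CBA F1 oocytes. Non-IR hearts had therefore also been excised and perfused, and no fresh heart stood among the groups.

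Expression was deposited as FPKM, fragments per kilobase of gene. The scaling of a library followed its size factor and not its total reads. A size factor is the median over genes of the ratio of reads to their mean over the libraries. Between 16601154 and 24841291 reads per library lay on genes. The row of the mouse Slit2 gene, at 0.0847 to 0.813 FPKM, does not check the human transgene. Ventricular myocyte markers summed to between 16861 and 24286 FPKM in every library, as a heart label implies. Of 10 skeletal muscle markers, 2 were at 0 in every library and the summed level was 1.80 to 3.998 FPKM. Atrial markers stood at 26.6 to 246 FPKM in 11 libraries and at 1758 FPKM in Slit2-IR replicate 1, where conduction system markers were also highest, at 20.1 FPKM against at most 8.32 elsewhere. The IR change of Gja5 and the Slit2-Tg difference in Scn4b are given with and without this library. In such bulk tissue, fewer cells of a type and less RNA per cell cannot be told apart.

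Connexins are the subunits of gap junctions. A ring of connexins forms a channel through the membrane, and channels of neighbouring cells dock to pass ions and small molecules from cell to cell, which lets the action potential travel through the myocardium. Gja1 encodes connexin 43, the main connexin of working ventricular muscle. Gja5 encodes connexin 40, found in atrial muscle, the fast conduction system and arterial endothelium. Gja4 encodes connexin 37, mainly a connexin of arterial endothelium, and Gjc1 encodes connexin 45, found in nodal tissue and developing heart and vessels. Voltage-gated sodium channels carry the upstroke of the action potential. Their pore is an alpha subunit, and small beta subunits such as that of Scn4b modify its gating and its place in the membrane. Scn4a encodes the alpha subunit of skeletal muscle, and Scn7a encodes an atypical alpha subunit known for sensing extracellular sodium and found in Schwann and glial cells.

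The genes differ in build, on GRCm38 coordinates and GENCODE M21 models. Each of the 4 connexins keeps its whole coding sequence in 1 exon of its first named transcript. Gja1 (ENSMUSG00000050953) lies at chr10:56377330-56402513 on the plus strand and encodes 382 codons. Gja4 (ENSMUSG00000050234) lies at chr4:127311421-127314039 on the minus strand and encodes 333 codons. The 2 remaining connexins are Gja5 (ENSMUSG00000057123, chr3:96904693-97077416, plus strand, 358 codons) and Gjc1 (ENSMUSG00000034520, chr11:102799579-102819700, minus strand, 396 codons). The alpha subunits are much longer. Scn4a (ENSMUSG00000001027, chr11:106318592-106353288, minus strand) spreads 1841 codons over 24 coding exons, and Scn7a (ENSMUSG00000034810, chr2:66673425-66784914, minus strand) spreads 1681 codons over 24 coding exons. The beta subunit gene Scn4b (ENSMUSG00000046480, chr9:45138395-45154152, plus strand) has 228 codons in 5 coding exons.

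The upstream sequences of the 3 connexins with the largest IR differences averaged over both genotypes are shown because they lie directly before the starts of these transcripts. They are the 250 bases before the RefSeq start on GRCm38.p6, written 5′ to 3′ on the strand of the gene, with capitals for letters that matched a searched motif. RefSeq windows were found for 6 of the 7 genes, all but Gjc1.
Gja1, chr10:56377050-56377299, plus strand: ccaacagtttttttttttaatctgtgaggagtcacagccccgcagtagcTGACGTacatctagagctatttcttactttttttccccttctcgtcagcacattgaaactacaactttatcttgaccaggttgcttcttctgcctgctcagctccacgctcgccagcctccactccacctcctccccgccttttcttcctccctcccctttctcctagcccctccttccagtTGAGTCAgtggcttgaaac
Gja4, chr4:127314040-127314289, minus strand: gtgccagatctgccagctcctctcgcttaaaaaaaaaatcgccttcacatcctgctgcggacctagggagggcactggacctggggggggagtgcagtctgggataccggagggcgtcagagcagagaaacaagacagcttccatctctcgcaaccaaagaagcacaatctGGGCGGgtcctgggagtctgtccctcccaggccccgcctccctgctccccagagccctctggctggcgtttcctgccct
Gja5, chr3:97032152-97032401, plus strand: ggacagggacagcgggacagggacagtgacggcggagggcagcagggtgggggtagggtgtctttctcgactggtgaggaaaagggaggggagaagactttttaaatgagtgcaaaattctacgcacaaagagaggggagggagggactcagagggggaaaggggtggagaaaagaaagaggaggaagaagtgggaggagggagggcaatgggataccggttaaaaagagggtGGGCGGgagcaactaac

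The motifs searched on both strands were AP-1 (TGANTCA), the core of the cyclic AMP response element (TGACGT), the T-box element (GGTGTGA), NKX2-5 (TNAAGTG), Sp1 (GGGCGG) and the TATA box (TATAAA), and the matches did not overlap. The Gja1 window held an AP-1 match 19 to 13 bases before the start, a motif found in 6.75% of all 32851 windows of this length, and a cyclic AMP response core ending 196 bases before it, found in 6.47%. The windows of Gja4 and Gja5 held 1 Sp1 match each, 79 to 74 and 17 to 12 bases before the start, as did that of Scn7a, and 32.7% of all windows held that motif. The windows of Scn4a and Scn4b matched none of these letters. A match describes the letters only, and binding was not measured.

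Gja1 was the most abundant of the 7 and Gja5 the least. Mean levels over the 12 libraries, per length, were 32.7 FPKM for Gja1, 11.5 for Scn4b, 9.95 for Gja4, 4.79 for Scn7a, 4.10 for Gjc1, 3.95 for Scn4a and 1.17 for Gja5. Gja1 exceeded Scn4b, Gja4 exceeded Scn7a and Scn4a exceeded Gja5 in 12 of 12 libraries. Other neighbours in this order were not apart. Scn4b exceeded Gja4 in 9 libraries, Scn7a exceeded Gjc1 in 10, and Gjc1 exceeded Scn4a in 7. The order depends on the length used: the deposited Gja1 length of 10257 bases covers the exons of 8 annotated transcripts, against 3071 bases for the first, and with the latter length Gja1 would stand at 109 FPKM.

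**Figure D1:**
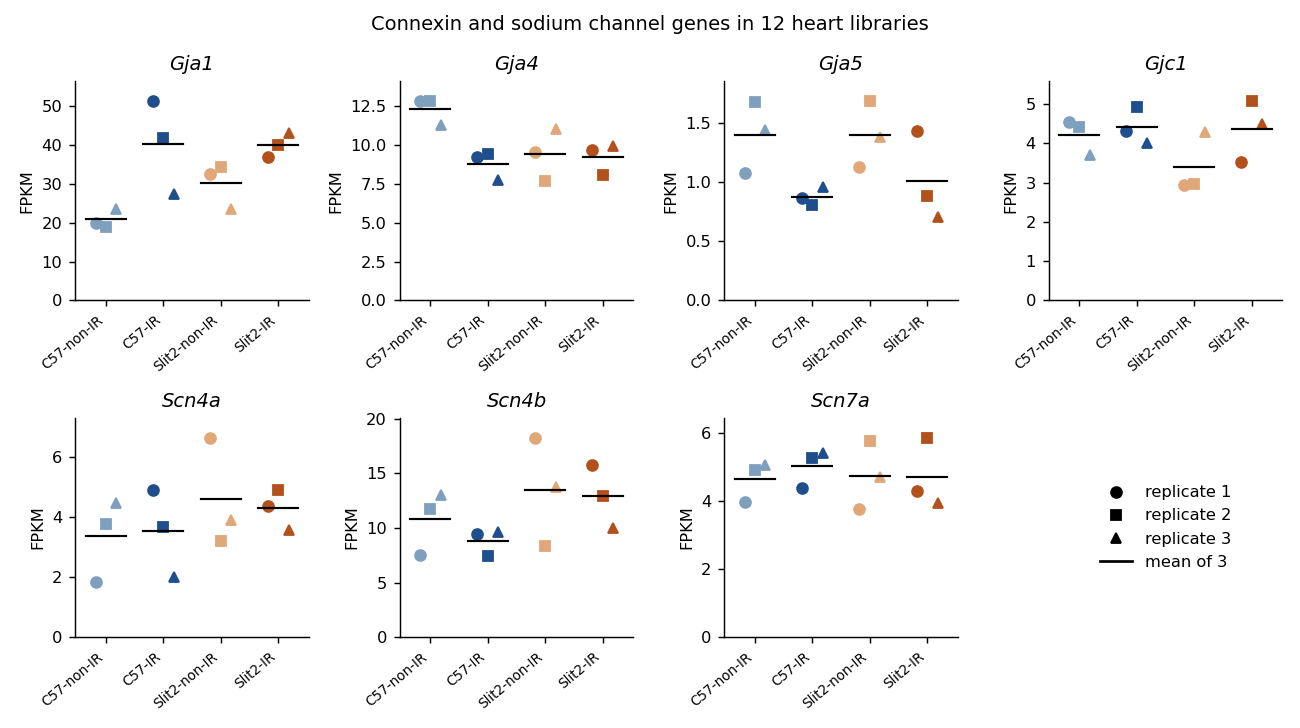
FPKM of each gene (vertical axes, starting at 0) in the 12 libraries by group, with circles, squares and triangles for replicates 1, 2 and 3 and a line at the mean of 3. Gja1 ran from 19.0 to 23.6 in C57-non-IR hearts and from 27.3 to 51.2 in C57-IR hearts, and the only IR library with Gja5 inside the non-IR range was Slit2-IR replicate 1.

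Mean Gja1 levels were higher after IR in both genotypes, but the rise was called only when averaged over both. The 3 C57-non-IR libraries held 19.9, 19.0 and 23.6 FPKM, and the 3 C57-IR libraries held 51.2, 41.7 and 27.3 FPKM. In Slit2-Tg hearts the values were 32.6, 34.2 and 23.5 FPKM without IR and 36.8, 39.8 and 43.0 FPKM after it. The IR and non-IR libraries of a genotype did not overlap in either genotype, as for 13.8% of all genes in C57BL/6J and 16.9% in Slit2-Tg hearts. Across genotypes, C57-IR replicate 3 lay below 2 of the Slit2-non-IR libraries. Mean levels in C57BL/6J hearts were 20.8 ± 2.43 (SD, n = 3) FPKM without and 40.1 ± 12.02 FPKM with IR, and those in Slit2-Tg hearts were 30.1 ± 5.75 and 39.9 ± 3.11 FPKM. Averaged over both genotypes Gja1 rose with IR by a log2 fold change of 0.64 (SE 0.15, limma adjusted p = 0.0382 over all genes), and an exact permutation test with 400 relabellings of treatment within genotype gave p = 0.005, the smallest it can give. It was the only one of the 7 called in that contrast, where 3.49% of all genes were called.

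The Gja1 call was close to the threshold. It held without C57-IR replicate 1 and without C57-IR replicate 3 and was lost without any one of the other 10 libraries, with limma adjusted p between 0.00864 and 0.0969 and log2 fold changes between 0.54 and 0.76 over these 12 fits. With no filter on low values the adjusted p was 0.0928, and with nuclear reads scaled to be equal it was 0.058. Within each genotype the rise was not called. The log2 fold change was 0.87 (95% interval 0.42 to 1.33, limma adjusted p = 0.112) in C57BL/6J hearts and 0.41 (-0.04 to 0.86, adjusted p = 0.508) in Slit2-Tg hearts. The difference between these changes was -0.47 (95% interval -1.11 to 0.18, adjusted p = 0.9998), and it ran from -0.71 without C57-IR replicate 3 to -0.27 without C57-IR replicate 1. Without Slit2-non-IR replicate 3 the Slit2-Tg change of Gja1 was 0.25.

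Gja5 and Gja4, the connexins of conducting and arterial cells, stood lower on average after IR, and neither passed the test. Gja5 was at 1.08, 1.69 and 1.45 FPKM in C57-non-IR and at 0.868, 0.812 and 0.960 FPKM in C57-IR libraries. In Slit2-Tg hearts it was at 1.13, 1.69 and 1.39 FPKM without IR and at 1.43, 0.889 and 0.711 FPKM after it. These are counts of 87 to 224 reads. Every IR library other than Slit2-IR replicate 1 lay below every non-IR library, that is, at most 0.960 against at least 1.08 FPKM. Averaged over both genotypes the log2 fold change of Gja5 was -0.31 (SE 0.10, limma adjusted p = 0.131), with an exact permutation p of 0.025 over 400 relabellings. Without Slit2-IR replicate 1 it was -0.38, with an adjusted p of 0.0494, so that leaving out that library brought Gja5 under the threshold. Without any one of the other 11 libraries the adjusted p was 0.0986 to 0.274, and over all 12 such fits the log2 fold change ran from -0.38 to -0.25. The scale understates a gene this low, and with a pseudocount of 0.1 the value was -0.54 (adjusted p = 0.130).

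Slit2-IR replicate 1 was also the library rich in atrial transcripts. It held 1049 FPKM of Myl7, the atrial myosin light chain, against at most 108 elsewhere, 7.42 FPKM of the pacemaker channel gene Hcn4 against at most 3.34, and 5.71 FPKM of Cntn2, a marker of the conduction system, against at most 2.78. C57-IR replicate 2, next in atrial markers with 246 FPKM, had 0.812 FPKM of Gja5. The part of atrial tissue in the Gja5 level of Slit2-IR replicate 1 was not tested. Blood cell markers moved with Gja5 over the 12 libraries (r = 0.72, a description). Their sum was 8.35 to 16.2 FPKM in C57-non-IR and 1.47 to 6.79 in C57-IR hearts, and 4.53 to 49.0 in Slit2-non-IR and 1.85 to 12.9 in Slit2-IR hearts, and its part in the Gja5 difference was not tested. Gja5 also shares 2.87% of its exon bases with Gpr89 on the other strand, which stood at 2.10 to 3.17 FPKM, and whether strand was used in counting is not given, so a part of its reads is uncertain. In addition, 13.9% of the 31-base words of its exons also occur in transcripts of Zfp697.

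**Figure D2:**
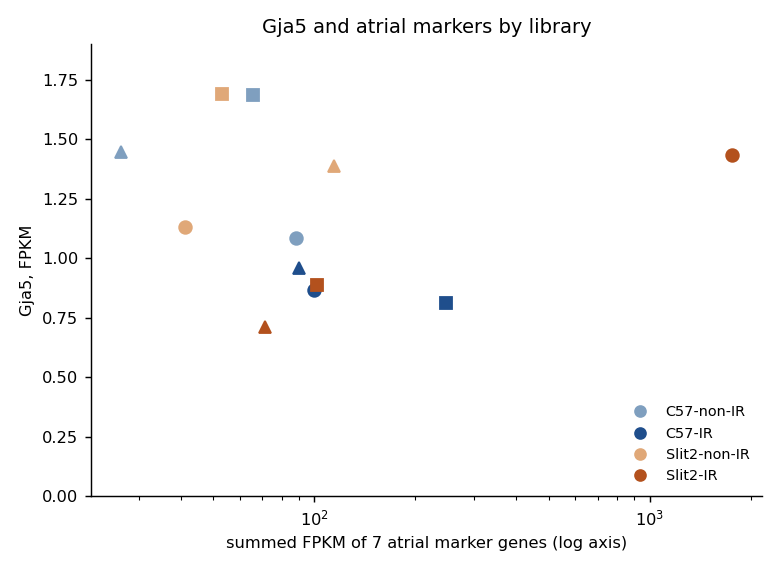
Gja5 in FPKM (vertical axis, from 0) against the summed FPKM of 7 atrial marker genes (horizontal log axis) for the 12 libraries, coloured by group, with circles, squares and triangles for replicates 1, 2 and 3. Slit2-IR replicate 1 lies alone at 1758 FPKM of atrial markers with 1.43 FPKM of Gja5, and the 5 other IR libraries lie at or below 0.960.

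In Gja4 the C57-non-IR libraries lay above all others by a narrow margin, at 11.3 FPKM or more against at most 11.04. This pattern was picked out after the values were seen, and the share of all genes with it was not counted. Gja1 came close to the same pattern in the other direction, with at most 23.6 FPKM in C57-non-IR and at least 23.5 in the other libraries. Gja4 levels were 12.8, 12.8 and 11.3 FPKM in C57-non-IR and 9.25, 9.42 and 7.76 FPKM in C57-IR libraries. They were 9.55, 7.69 and 11.04 FPKM in Slit2-non-IR and 9.68, 8.09 and 9.96 FPKM in Slit2-IR libraries. All 3 C57-non-IR libraries lay above the other 9. The log2 fold change with IR was -0.44 (SE 0.13, limma adjusted p = 0.221) in C57BL/6J hearts and -0.02 (SE 0.13, adjusted p = 0.982) in Slit2-Tg hearts. The interaction was 0.43 (95% interval 0.02 to 0.83), with an unadjusted limma p of 0.0415 and an adjusted p of 0.9998, and an exact permutation p of 0.045. Without IR, the log2 fold change of Gja4 in Slit2-Tg against C57BL/6J hearts was -0.36 (SE 0.13, adjusted p = 0.9995). As the C57-non-IR libraries enter both comparisons, these values are not independent of each other.

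Summed endothelial markers of the C57-non-IR hearts overlapped those of other groups. Summed arterial endothelial markers ran from 50.7 to 65.8 FPKM without and 43.9 to 66.7 with IR in C57BL/6J hearts, and from 42.4 to 53.7 and 54.9 to 70.7 in Slit2-Tg hearts. Summed general endothelial markers ran from 237 to 286 FPKM in C57-non-IR hearts and from 171 to 267 FPKM in the other groups. The part of the number of endothelial cells in the Gja4 values was not tested.

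Gjc1 had the smallest IR difference of the 4 connexins in C57BL/6J hearts. It stood at 4.53, 4.42 and 3.71 FPKM in C57-non-IR and at 4.32, 4.91 and 4.002 FPKM in C57-IR libraries. In Slit2-Tg hearts it stood at 2.95, 2.96 and 4.27 FPKM without IR and at 3.52, 5.07 and 4.47 FPKM after IR. The ranges overlapped in all 4 comparisons. Averaged over both genotypes the log2 fold change with IR was 0.17 (95% interval -0.05 to 0.40, limma adjusted p = 0.476).

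**Figure D3:**
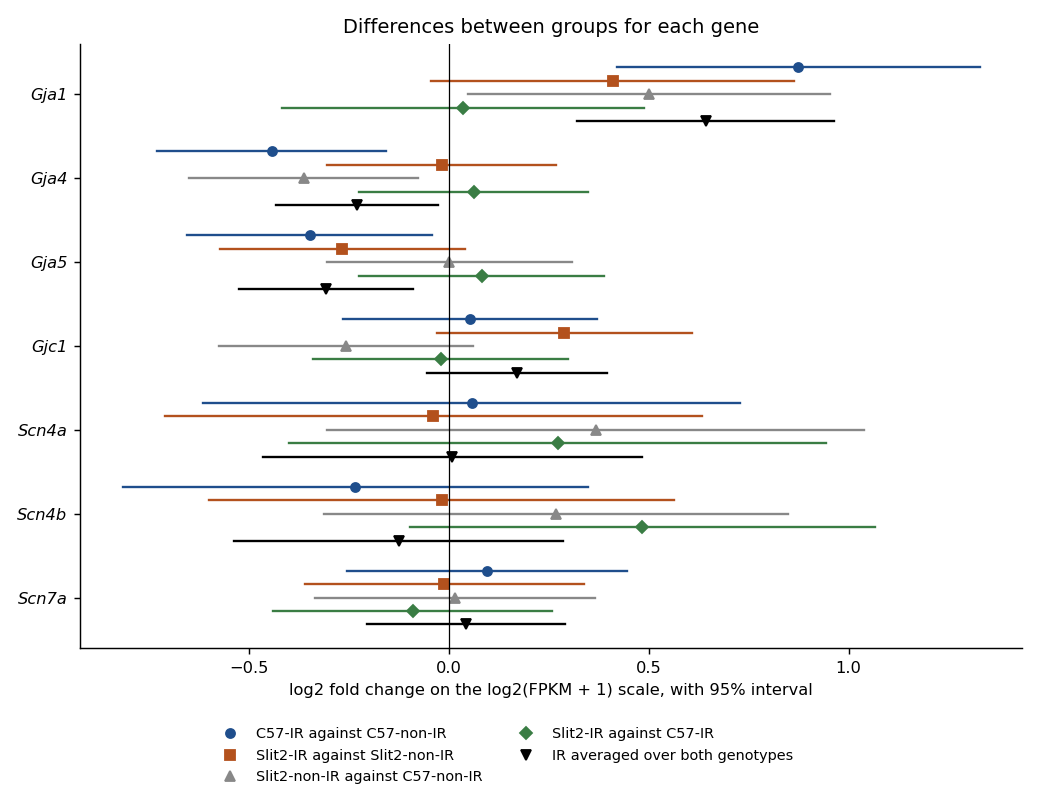
Log2 fold changes on the log2(FPKM + 1) scale (horizontal axis) with 95% intervals from limma for the 7 genes in the 4 comparisons of groups and for IR averaged over both genotypes. The averaged Gja1 interval, 0.32 to 0.96, and the averaged Gja5 interval, -0.52 to -0.09, lie on opposite sides of 0, and all intervals of the 3 sodium channel genes include 0.

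Averaged over both genotypes, Gja1 made up more of the connexin transcripts after IR. Among all 20 connexin genes of the list, Gja1 took 46.3% ± 3.96 (SD, n = 3) of the summed FPKM without and 65.2% ± 4.72 with IR in C57BL/6J hearts, and 59.8% ± 7.23 and 64.7% ± 3.90 in Slit2-Tg hearts. The lowest C57-IR share, 60.3%, was above the highest C57-non-IR share, 50.7%. In Slit2-Tg hearts the shares overlapped, at 51.7% to 65.6% without and 60.2% to 67.6% with IR, and differed by 4.82 points (exact permutation p = 0.4). The difference between the genotypes in this change was -14.1 points (exact permutation p = 0.085). Averaged over both genotypes the share was 11.9 percentage points higher with IR (exact permutation p = 0.02, 0.04 after adjustment over the 2 ratios tested), and 9.85 to 13.3 points higher with any one library left out. When treatment was relabelled only within replicate numbers (replicate block), the exact p was 0.0938. With the lengths of the first named transcripts, the difference was 8.36 points (exact p = 0.03). The share of Slit2-Tg hearts differed from that of C57BL/6J hearts by 6.47 points (exact p = 0.135). Without IR it was 13.5 points higher in Slit2-Tg hearts (exact permutation p = 0.1, the smallest possible). The C57-non-IR shares, at most 50.7%, lay below those of all other groups, at 51.7% or more. That pattern too was picked out after the values were seen. Since Gja1 is the largest part of the sum, its share is no measure independent of its level. The members were also chosen with earlier results of these data known, which the adjustment over 2 ratios does not cover.

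Gja4 took 27.5% ± 2.75 (SD, n = 3) of the connexin FPKM without and 14.8% ± 2.27 with IR in C57BL/6J hearts, and 19.1% ± 4.82 and 14.97% ± 1.33 in Slit2-Tg hearts. Gja5 took between 1.12% and 3.83% in the 12 libraries. Gja3, which encodes connexin 46, best known from the lens, was the only other connexin with a mean of at least 1 FPKM, at 3.499 to 6.75 FPKM, and took 7.40% to 12.3%. The other 15 connexins together took 0.910% to 5.50%, highest in Slit2-IR replicate 1. Of the 16 connexins outside the members 3 passed the filter, and none of these passed a test in any comparison at an adjusted or an unadjusted p of 0.05.

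**Figure D4:**
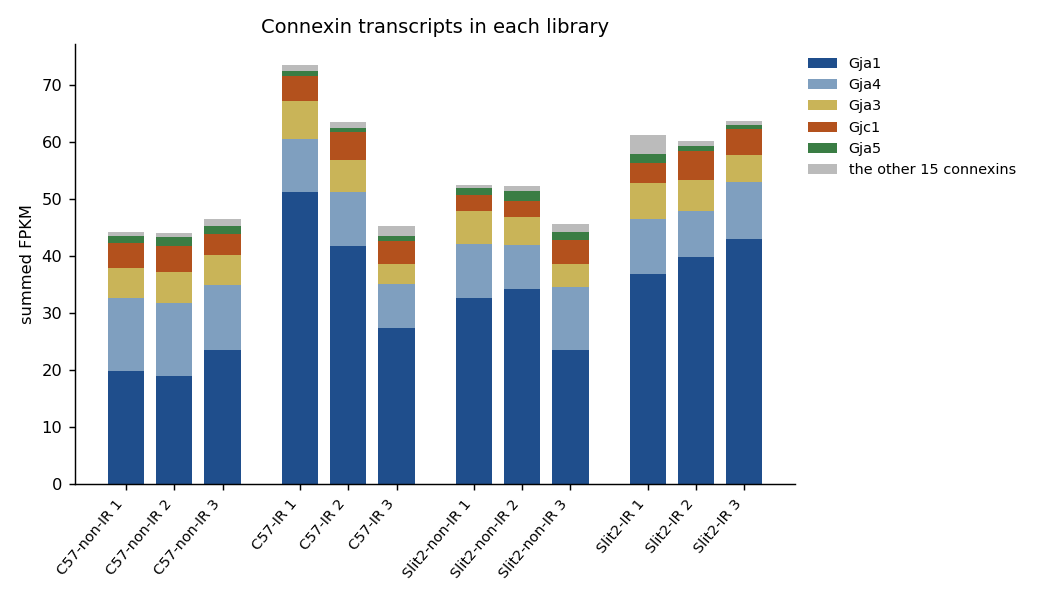
Summed FPKM of all connexin genes (vertical axis, from 0) in each of the 12 libraries, stacked by gene. The sum was 44.04 to 46.5 in C57-non-IR, 45.3 to 73.5 in C57-IR, 45.5 to 52.3 in Slit2-non-IR and 60.2 to 63.7 in Slit2-IR libraries. The Gja1 part, at the bottom of each bar, was the largest in every library.

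No IR difference of the 3 sodium channel genes exceeded the spread between hearts. Scn4b, the beta subunit, stood at 7.57, 11.7 and 13.0 FPKM in C57-non-IR and at 9.49, 7.47 and 9.60 FPKM in C57-IR libraries. In Slit2-Tg hearts it stood at 18.3, 8.39 and 13.8 FPKM without IR and at 15.8, 13.0 and 9.996 FPKM after IR. Averaged over both genotypes its log2 fold change with IR was -0.13 (95% interval -0.54 to 0.28, limma adjusted p = 0.838). After IR all 3 Slit2-Tg libraries lay above all 3 C57BL/6J libraries, and 6.47% of all genes showed no overlap between these groups in either direction. The log2 fold change of Slit2-IR against C57-IR was 0.48 (95% interval -0.10 to 1.07, limma adjusted p = 0.9996). Averaged over both treatments the Slit2-Tg difference in Scn4b was 0.38 (SE 0.19, limma adjusted p = 0.999, exact permutation p = 0.085). Without Slit2-IR replicate 1 this difference was 0.30 (limma adjusted p = 0.9999).

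Scn4a, the skeletal muscle alpha subunit, was measurable in every heart. It stood at 1.83, 3.78 and 4.49 FPKM in C57-non-IR and at 4.92, 3.68 and 2.01 FPKM in C57-IR libraries. In Slit2-Tg hearts the values were 6.66, 3.22 and 3.92 FPKM without IR and 4.39, 4.92 and 3.59 FPKM after it. The groups overlapped in all 4 comparisons, and the averaged log2 fold change with IR was 0.01 (95% interval -0.47 to 0.48). Skeletal muscle markers, summed over 10 genes, stood at 1.80 to 2.53 FPKM in the C57BL/6J hearts and at 2.66 to 3.998 FPKM in the Slit2-Tg hearts, without overlap, and their part in the sodium channel values was not tested. The widest spread of the 7 genes was that of Scn4a, with an SD of 33.0% of the mean over the 12 libraries.

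Scn7a had the narrowest spread of the 7, with an SD of 15.1% of the mean. In C57BL/6J hearts it stood at 3.97, 4.94 and 5.06 FPKM without and at 4.38, 5.29 and 5.44 FPKM with IR. In Slit2-Tg hearts it stood at 3.77, 5.77 and 4.72 FPKM without and at 4.30, 5.88 and 3.94 FPKM with IR. The groups overlapped throughout, and the averaged log2 fold change with IR was 0.04 (95% interval -0.21 to 0.29). Schwann cell markers summed to 4.20 to 8.36 FPKM. Over the 12 libraries Scn7a correlated with summed lung markers at r = 0.66, with fibroblast markers at 0.65, with Schwann cell markers at 0.49 and with ventricular myocyte markers at -0.67, a description of libraries that also share depth and tissue content. Lung markers stood at 5.48 to 12.2 FPKM in 5 libraries of 3 groups and at 0.0582 to 0.173 FPKM in the other 7.

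Among the 11 sodium channel subunits outside the members, 9 stood below 1 FPKM in every library. The filter on low values was passed by 7 of the 11, and none of these passed limma's adjusted p of 0.05 in any comparison. At an unadjusted p of 0.05 there was 1 of 7 in Slit2-non-IR against C57-non-IR hearts, against 3.19% of all genes, and 0 in the other comparisons.

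Scn4a and Scn4b moved together from heart to heart. Their correlation over the 12 libraries, on the log2(FPKM + 1) scale, was 0.70, and 0.67 after subtraction of group means. Both were highest where long transcripts as a whole were high. A length index of each library, the median log2 deviation of 4033 genes of at least 5000 bases minus that of 1587 genes of at most 1500 bases, ran from -0.16 to 0.11 and correlated with Scn4a at 0.82 and with Scn4b at 0.75. Scn7a, although 7338 bases long, correlated with it at -0.14 and Gja1 at 0.27. General endothelial markers were lower where these genes were higher (r = -0.74 for Scn4a and -0.50 for Scn4b), and conduction system markers were higher (r = 0.58 and 0.67). Skeletal muscle markers correlated with Scn4a at 0.21 and with Scn4b at 0.48. Summed conduction system markers ran from 2.55 to 6.16 FPKM in C57BL/6J and from 4.35 to 20.1 FPKM in Slit2-Tg hearts. The 20.1 was that of Slit2-IR replicate 1, and all other libraries were at or below 8.32. The part of these markers in the Slit2-Tg difference in Scn4b was not tested. All these correlations include Slit2-IR replicate 1 and were not computed without it. These are descriptions of points that share library and depth. With the index as a covariate, a fit added after the data were seen, the Slit2-Tg difference in Scn4b was 0.07 in place of 0.38. The IR change of Gja1 was 0.66 (limma adjusted p = 0.0426) in that fit. Mean index was -0.058 in C57-non-IR, -0.037 in C57-IR, 0.066 in Slit2-non-IR and 0.014 in Slit2-IR libraries, with overlap between libraries. Since the index thus differed by genotype, that fit cannot tell index and genotype apart for Scn4b. The part of the index in these values was not tested.

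**Figure D5:**
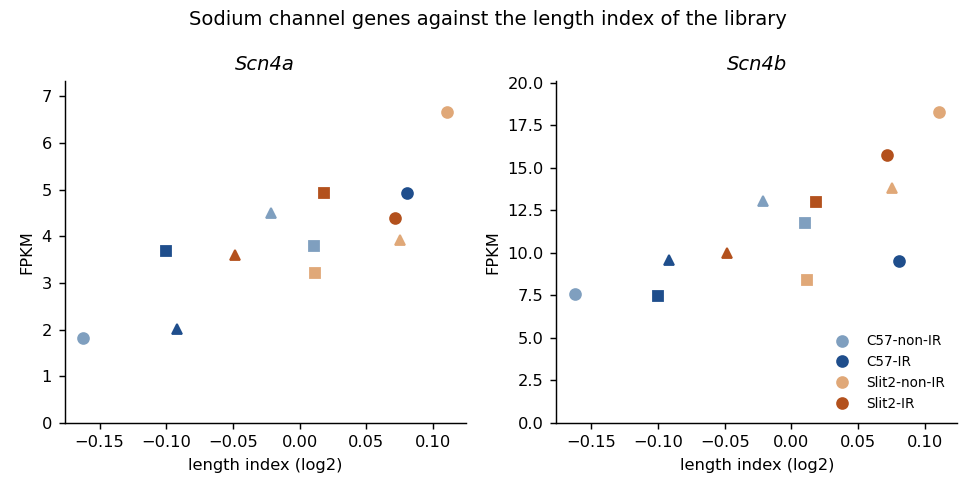
FPKM of Scn4a and Scn4b (vertical axes, from 0) against the length index of the library (horizontal axes, log2), coloured by group, with circles, squares and triangles for replicates 1, 2 and 3. The lowest index, -0.16, was that of C57-non-IR replicate 1 and the highest, 0.11, that of Slit2-non-IR replicate 1, the libraries with the lowest and highest Scn4a.

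At limma's adjusted threshold 1 of the 7, Gja1, was called for IR averaged over both genotypes, against 3.49% of all genes. The members were chosen with earlier results of these data known. Their counts beside those of all genes are therefore a description and no test. With limma, 0 of 7 passed an adjusted p of 0.05 in C57-IR against C57-non-IR (0.459% of all genes did), in Slit2-IR against Slit2-non-IR (0.525%), in Slit2-non-IR against C57-non-IR (0.0394%), in Slit2-IR against C57-IR (0.0459%), in Slit2-Tg averaged over both treatments (0.131%) and in the interaction (0%), and limma-voom on the recovered reads also called 0. At an unadjusted p of 0.05 the counts were 3, 0, 2, 0, 0 and 1 of 7 in the same order, against 8.96%, 11.2%, 3.19%, 3.16%, 4.13% and 1.86% of all genes, and 3 of 7 for IR averaged over both genotypes against 15.9%. The 3 in C57-IR against C57-non-IR and in the averaged contrast were Gja1, Gja4 and Gja5. The 2 in Slit2-non-IR against C57-non-IR were Gja1, higher, and Gja4, lower. The number of the 7 without overlap between groups was 3, 1, 1 and 1 in the 4 pairwise comparisons, against 13.8%, 16.9%, 9.2% and 6.47% of all genes. The median log2 fold change of the 7 was between -0.02 and 0.06 in these 4 comparisons. That of all tested genes lay within 0.01 of 0, near where the scaling of the libraries sets it.

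Genes of the same structures were examined from lists. Of 18 genes of the intercalated disc, the junction between myocytes that holds the Gja1 protein, 1 was called for IR averaged over both genotypes. It was higher, 0 were called lower, and 3.49% of all genes were called in either direction. It was Xirp1, an actin-binding protein of the disc, with a log2 fold change of 1.35 (SE 0.28, limma adjusted p = 0.0226). The median of the 18 was 0.15 in that contrast. That of all tested genes was 0.00, near where the scaling of the libraries sets it. Of the other disc genes, Vcl, which anchors actin at the membrane, had a log2 fold change of 0.31 (adjusted p = 0.196), and Ctnna1, which links cadherins to actin, one of 0.22 (adjusted p = 0.210). At an unadjusted p of 0.05, 4 disc genes were higher and 0 lower, where 15.9% of all genes passed in either direction.

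Of 11 tested partners of the sodium channel, 9 conduction transcription factors and 6 genes of sodium transport, 0 passed limma's adjusted threshold in any comparison. With IR averaged over both genotypes 1, 1 and 0 had an unadjusted limma p under 0.05, against 15.9% of all genes. The partner was Fgf11, which encodes a fibroblast growth factor homologous factor, with a log2 fold change of -0.26 (adjusted p = 0.122), and the transcription factor was Hand2, a regulator of ventricular growth, with -0.31 (adjusted p = 0.259). Slc8a1, the sodium-calcium exchanger, had 0.43 with a wide 95% interval of -0.26 to 1.11. In the 4 pairwise comparisons 0 genes of any of these lists, the disc included, passed. Tbx2, a transcription factor that represses chamber genes in developing conduction tissue, had a log2 fold change of -0.50 (SE 0.15, adjusted p = 0.263) with IR in C57BL/6J hearts and 0.07 (adjusted p = 0.930) in Slit2-Tg hearts.

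Tbx2 was also among the genes most like Gja4. Over the 12 libraries and 11192 tested genes with a mean of at least 1 FPKM, the highest correlations with Gja4 were those of Xylt2 (r = 0.88), Tbx2 (0.87) and Tbxa2r (0.85). Those with Gja1 were the processed pseudogene Gm9762 (0.93), Lilr4b (0.88) and Lims1 (0.88). For Gja5 they were Fam189b (0.96), Ids (0.90) and Ttc33 (0.90), and for Gjc1 Pola2 (0.95), Tnfaip8l1 (0.88) and Slc25a30 (0.87). For the sodium channel genes the first was Parp1 for Scn4a (0.92), Ahdc1 for Scn4b (0.91) and Hpgd for Scn7a (0.91). These are the extremes of many correlations over few libraries and say nothing of shared function.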

How the data were processed

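RNA was measured in 12 mouse heart libraries. The deposited values are FPKM per gene and library, and per the labels and methods the authors used an NEBNext Ultra kit, Illumina paired-end reads, HISAT2 and mm10. The counter, its annotation and its use of strand are not given in the sources used here. Deposited FPKM times length came out as whole reads of a library for 100% of values (within 0.1 read), so reads were recovered, and 0 per-library columns were left unused. Groups came from the labels, with IR read from letters of the titles. The members and lists were chosen with earlier results of these data known. Genes were named by rule: all members, their families, called genes of the lists, and the 3 genes most like each member, with some genes of the lists and 1 ratio not reported here.

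The test was limma (3.58.1, R 4.3.3) with a variance trend on log2(FPKM + 1), 4 groups in 1 fit, for genes with the equivalent of 10 reads in at least 3 libraries and 15 reads over all 12. P-values were adjusted after Benjamini and Hochberg over 15240 genes. Exact permutation tests were two-sided. With 3 against 3, the smallest exact p is 0.1. The scripts were checked on simulated data. Alternatives were another pseudocount, 2 other filters, another scaling, limma-voom, a replicate block, fits of 6 libraries, each library left out, a length covariate and other gene lengths, the last 2 chosen after seeing the data. Same-numbered libraries deviated together, with all 3 correlations above 0.1, in Slit2-IR against Slit2-non-IR (0.143 to 0.294) and Slit2-IR against C57-IR (0.154 to 0.362). In C57-IR against C57-non-IR (0.0833 to 0.295) and Slit2-non-IR against C57-non-IR (0.0377 to 0.324) not all 3 were above 0.1. Replicate 1 libraries stood at 0.285 to 0.324 in all 4 comparisons and had the highest ventricular myocyte marker sum of each group. The pairing rests on these correlations alone.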

Additional observations from a re-analysis of the deposited data

How the results depend on the processing

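Each group held 3 hearts, and the lowest count of a member was 87 reads. The parts of depth and of the number of hearts in the precision were not tested. With IR averaged over both genotypes the number of the 7 genes called fell from 1 to 0 with no filter beyond 1 read and with equal nuclear reads, and was 0 to 1 with a library left out. It stayed 0 in the other contrasts under all alternatives. The replicate block changed the call of no member, moved the Gja1 share of connexin FPKM (11.9 points) across the threshold to an exact p of 0.0938, and moved the genes called in Slit2-IR against Slit2-non-IR from 80 to 202 and in C57-IR against C57-non-IR from 70 to 174.

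Over all alternatives the calls among all genes ran from 3 to 254 (C57-IR against C57-non-IR), 4 to 202 (Slit2-IR against Slit2-non-IR), 0 to 14 (Slit2-non-IR against C57-non-IR), 3 to 12 (Slit2-IR against C57-IR), 299 to 773 (IR averaged), 8 to 30 (Slit2-Tg averaged) and 0 to 4 (interaction). The cause was not tested. With equal nuclear reads the calls for IR averaged were 277 higher and 305 lower, against 356 and 176 as deposited, with the median of all genes at -0.054.

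Some values that were not called turned their sign. As the length index differed by genotype, its covariate fit cannot tell index and genotype apart in comparisons of Slit2-Tg with C57BL/6J hearts. With equal nuclear reads the IR change in C57BL/6J hearts was -0.018 for Gjc1 and -0.015 for Scn4a, and the averaged IR change was -0.066 for Scn4a and -0.035 for Scn7a. With limma-voom Gja5 in Slit2-non-IR against C57-non-IR was -0.0075. With the length index as a covariate the values were -0.033 for Scn4a in C57-IR against C57-non-IR; 0.00081 for Gja4, 0.19 for Scn4a and 0.16 for Scn4b in Slit2-IR against Slit2-non-IR; -0.11 for Gja5, -0.17 for Scn4a (0.37 without the covariate) and -0.16 for Scn4b (0.27 without it) in Slit2-non-IR against C57-non-IR; -0.016 for Gja1 and 0.0060 for Gjc1 in Slit2-IR against C57-IR; and -0.039 for Gja5 and -0.060 for Scn4a (0.32 without it) in Slit2-Tg averaged.

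With a library left out, ranges that crossed 0 were, in C57-IR against C57-non-IR, Gjc1 -0.020 to 0.11 and Scn4a -0.23 to 0.33; in Slit2-IR against Slit2-non-IR, Gja4 -0.14 to 0.091, Scn4a -0.22 to 0.21, Scn4b -0.30 to 0.22 and Scn7a -0.15 to 0.11; in Slit2-non-IR against C57-non-IR, Gja5 -0.099 to 0.084 and Scn7a -0.11 to 0.14; in Slit2-IR against C57-IR, Gja1 -0.21 to 0.23, Gja4 -0.018 to 0.15, Gja5 -0.064 to 0.19, Gjc1 -0.12 to 0.095 and Scn7a -0.23 to 0.0048; for IR averaged, Scn4a -0.13 to 0.14 and Scn7a -0.029 to 0.10; and for Slit2-Tg averaged, Gja5 -0.032 to 0.095 and Scn7a -0.11 to 0.026.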

Other observations

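Slit2-IR replicate 1, the library rich in atrial transcripts, also held the most Gjd3 (28 reads, 1.65 FPKM, against at most 19 reads elsewhere), the most Gjb5 (14 reads against at most 5) and the most of the pannexin Panx2 (62 reads against at most 22). Slit2-IR replicate 2 held 150 reads of the sodium channel gene Scn10a, against 16 to 53 in the other 11 libraries, and 498 reads of the mouse Slit2 gene, against 48 to 125. These genes were picked out after their values were seen. The connexins Gjb1, Gjd2 and Gje1 and the sodium channel Scn9a had 0 reads in every library.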
